A study of Mus musculus with 35 samples.

Results

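OB cells at day 14 of reprogramming were compared with OB cells at day 6, to describe how this combination of factors changed between its middle and late stage. Both groups were taken by their library titles, which gave 7 of the 35 mouse libraries of the series. They are 3 libraries of OB without BMP4 at day 14 and 4 libraries of OB without BMP4 at day 6. BMP4 is a bone morphogenetic protein that some other cultures of the series received at 10 ng/ml. All 7 cultures had gone through 2 rounds of infection with the factors and were then kept in iCD1, a reprogramming medium, without BMP4. The labels do not expand the name OB, while the title of the series names Kdm2b and somatic reprogramming. Neither the starting cells of these cultures nor the strain, age or sex of the mice is given in the sources used here, and the labels call the material only reprogramming cells. The factors came from infection and whole cultures were sampled, so each library averages infected cells at whatever stage they had reached. Nothing in the labels says whether libraries of a group came from separate cultures, so a p-value here reflects only how far libraries of a group scattered, and that scatter may be technical.

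The change in OB was also set against the same interval in 2 other combinations without BMP4. These were OA at day 14 (3 libraries) and day 6 (3 libraries) and ODR at day 14 (3 libraries) and day 6 (2 libraries). The third ODR day 6 column holds the same value as an ODR column with BMP4 at all 21350 genes and was left out. Messenger RNA was measured by sequencing of poly-A selected RNA, and the values are normalized tag counts per gene, given as whole numbers and limited by a common ceiling of 18690.

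Oct4, encoded by Pou5f1, is a transcription factor that holds stem cells pluripotent and is a classic factor for turning fibroblasts into induced pluripotent cells. Kdm2b is a histone demethylase that binds unmethylated CpG islands and brings the variant Polycomb complex PRC1.1 to them, where the complex marks histone H2A with ubiquitin. During reprogramming, cells typically lose a fibroblast program, pass through intermediate states that can resemble embryonic progenitors, and only later switch on their own pluripotency network. Caudal progenitors of the embryo, which build the trunk from the tail end, are marked by T, the Cdx factors, Nkx1-2 and Sox2 and are maintained by Wnt and FGF signals.

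Each value was transformed as log2(value + 1), and 12759 of the 21350 genes, those that reached 10 in 2 or more of the 7 libraries, were tested with limma. A gene was called at a Benjamini-Hochberg adjusted p below 0.05. Day 14 differed from day 6 in 7587 genes (59.5% of those tested). Of these, 3724 genes (29.2%) were higher at day 14 and 3863 genes (30.3%) were lower. With 59.5% of all genes called, a share of members near 30% in either direction is no more than the background. The median log2 change over all genes tested was -0.0037. How the values were normalized is not stated. This median and the near balance of the directions cannot be told apart from an effect of that step. Changes of at least 1 on the log2 scale were called upward in 1573 genes (12.3%) and downward in 1783 genes (14%). Very large changes were mostly increases. A log2 change of at least 4 was called in 106 genes (0.831%), and one of -4 or less in 13 genes (0.102%). All 3 day 14 libraries lay above all 4 day 6 libraries in 3881 genes (30.4%) and below them in 3919 genes (30.7%). List members named below were mostly taken by smallest adjusted p. A lack of overlap between the days in such genes therefore follows largely from that choice.

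The 7 libraries had nearly equal totals, between 4347490 and 4393668, and 9 or 10 genes at the ceiling in each. These totals come from the normalization, so the sequencing depth is unknown. Correlations of log2 values over the genes tested ranged from 0.959 to 0.974 among day 14 libraries and from 0.968 to 0.976 among day 6 libraries. Between the days they ranged from 0.794 to 0.878. Day 14 replicate 1 stood somewhat apart. Its mean correlation with the day 6 libraries was 0.804, against 0.858 for day 14 replicate 2 and 0.865 for day 14 replicate 3, and it was the day 14 library farthest from day 6 in 68.3% of the genes called higher and 65.9% of those called lower. Without it 6649 genes were called, and the counts per direction changed by 3 or fewer members in each list of up to 50 genes described below.

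The factors themselves were read first. Pou5f1 (chromosome 17, 35506018 to 35510772, plus strand, on mm10) was at 7086, 18690 and 18690 in the day 14 libraries and at 18690 in all 4 day 6 libraries. Its fall in day 14 replicate 1 did not pass the test (log2 change -0.47 ± 0.33 SE, adjusted p = 0.258), and with both days at the ceiling its size bounds nothing. Kdm2b (chromosome 5, 122870665 to 122989823, minus strand) was at 4626, 6246 and 4220 in day 14 libraries, against the ceiling in every day 6 library. The groups did not overlap, and the log2 change of -1.91 ± 0.14 (adjusted p = 9.18e-05) is a lower bound of the fall. The clipped day 6 values hide their scatter, so this SE and adjusted p may be too small. Kdm2a (chromosome 19, 4314419 to 4398285, minus strand), the close relative of Kdm2b, overlapped between the days, with 1000, 950 and 806 at day 14 and 868, 868, 946 and 1034 at day 6 (log2 change -0.02 ± 0.12, adjusted p = 0.906). Gene-level values cannot separate transcripts of an introduced factor from those of the cell's own gene.

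All 4 markers of the late stage were close to absent or low at day 6 and high at day 14. Sox2 (chromosome 3, 34650405 to 34652461, plus strand), a transcription factor of stem cells and neural progenitors, had 302, 274 and 292 at day 14, against 4, 2, 4 and 3 at day 6 (log2 change 6.12 ± 0.19, adjusted p = 5.66e-06). Lin28a (chromosome 4, 134003330 to 134018841, minus strand), an RNA-binding protein that blocks the maturation of let-7 microRNAs, had 632, 656 and 742, against 2, 1, 1 and 0 (8.50 ± 0.33, adjusted p = 1.1e-05). Cdx2 (chromosome 5, 147300805 to 147307270, minus strand), a homeobox factor of the caudal embryo and the trophoblast, had 170, 206 and 186, against 1, 0, 0 and 0 (7.30 ± 0.26, adjusted p = 7.98e-06). In each of these genes the day 14 libraries lay within a narrow band far above every day 6 library. Slc2a1 (chromosome 4, 119108711 to 119137983, plus strand), the glucose transporter Glut1, had 3007, 2798 and 2717 at day 14 and was already read at day 6, with 374, 290, 324 and 296 (3.15 ± 0.12, adjusted p = 9.46e-06). As these are whole cultures, more cells that express a gene and more RNA per cell cannot be told apart, here or for any change below.

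**Figure D1:**
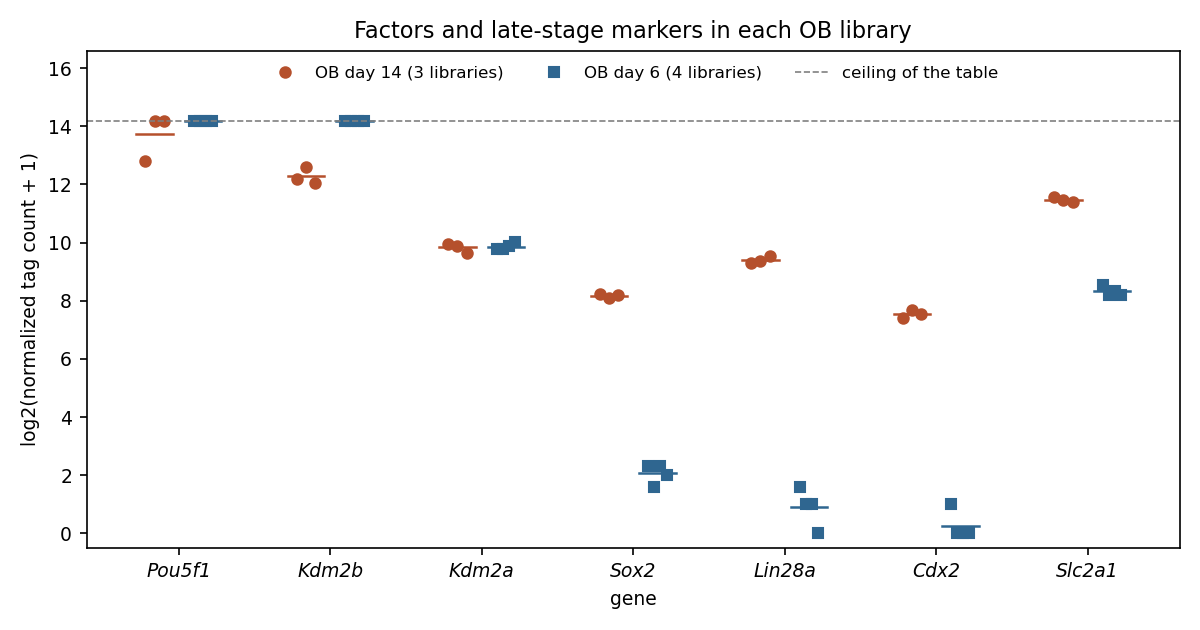
Log2(normalized tag count + 1) of the factor genes and the late-stage markers in each OB library, day 14 as circles and day 6 as squares, with bars at the group means and a dashed line at the ceiling. Sox2, Lin28a, Cdx2 and Slc2a1 lie higher in all 3 day 14 libraries than in all 4 day 6 libraries, Kdm2b lies lower, and Kdm2a overlaps.

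The single embryonic stem cell (mESC) library had 1508 for Sox2, 57 for Lin28a, 0 for Cdx2 and 1016 for Slc2a1. The single mouse embryonic fibroblast (MEF) library had 0 for each of the first 3 and 538 for Slc2a1. OB day 14 therefore lay below the mESC library for Sox2 and above it for the other 3 markers, in every replicate. Neither library has a replicate, so these differences were not tested.

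The largest increases included genes of the caudal end of the embryo, among them Nkx1-2 and Cdx2. Genes were named by size of change, 12 in each direction, from those called, with no overlap between the days and with a mean of 100 or more on 1 of the days. On the rising side it gave Igdcc3, Lin28a, Mmp9, Nkx1-2, Cdx2, Car14, Slc16a3, Meox1, Zic4, Hoxb1, Mab21l2 and Fzd10. Nkx1-2, a homeobox factor of the caudal epiblast and the early neural plate, had 496, 502 and 402 at day 14, against 10, 2, 1 and 0 at day 6 (log2 change 7.35 ± 0.72, adjusted p = 0.000211). Hoxb1, an anterior Hox gene that is also read in the primitive streak, had 120, 98 and 104, against 1, 0, 0 and 0 (6.50 ± 0.26). Meox1, a homeobox factor of somites, had 164, 132 and 71, against 1, 0, 0 and 0 (6.61 ± 0.36). All 3 were at or near 0 at day 6, and for such genes, and for any difference built on them, the log2 value depends on the 1 added before the log.

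The list of caudal and primitive streak genes had 10 of 16 tested members called higher and 2 lower, with a median log2 change of 4.15. The count of lower members was 4 without day 6 replicate 4. A further 13 of its 29 genes were not tested. A member near 0 at day 6 was tested only if it reached 10 at day 14, which favours increases in this count and median. The median also depends on the 1 added before the log. T, or brachyury, the T-box factor of the streak and notochord, had 59, 43 and 52 at day 14, against 1, 1, 0 and 0 at day 6 (5.20 ± 0.31, adjusted p = 3.76e-05). Foxb1, a forkhead factor of the caudal neural tube, had 49, 74 and 41 at day 14 and was listed at 0 in all 4 day 6 libraries. Evx1, a homeobox factor of the streak, had 42, 17 and 30 and was likewise listed at 0 at day 6. These 3 genes were therefore detected in every day 14 library and nearly absent before. Cdx1 (5.85 ± 0.54), Cdx4 (3.45 ± 0.22) and Wnt8a (5.21 ± 0.60), chosen after their values were seen, rose as well. The 2 members that fell were Eomes, a T-box factor of early mesendoderm, with 2, 2 and 4 at day 14 and 8, 14, 15 and 11 at day 6 (-1.83 ± 0.26), and Epha5, an ephrin receptor (-1.36 ± 0.15). The markers Tbx6, Msgn1 and Mesp1 of later mesoderm were too low to be tested.

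**Figure D2:**
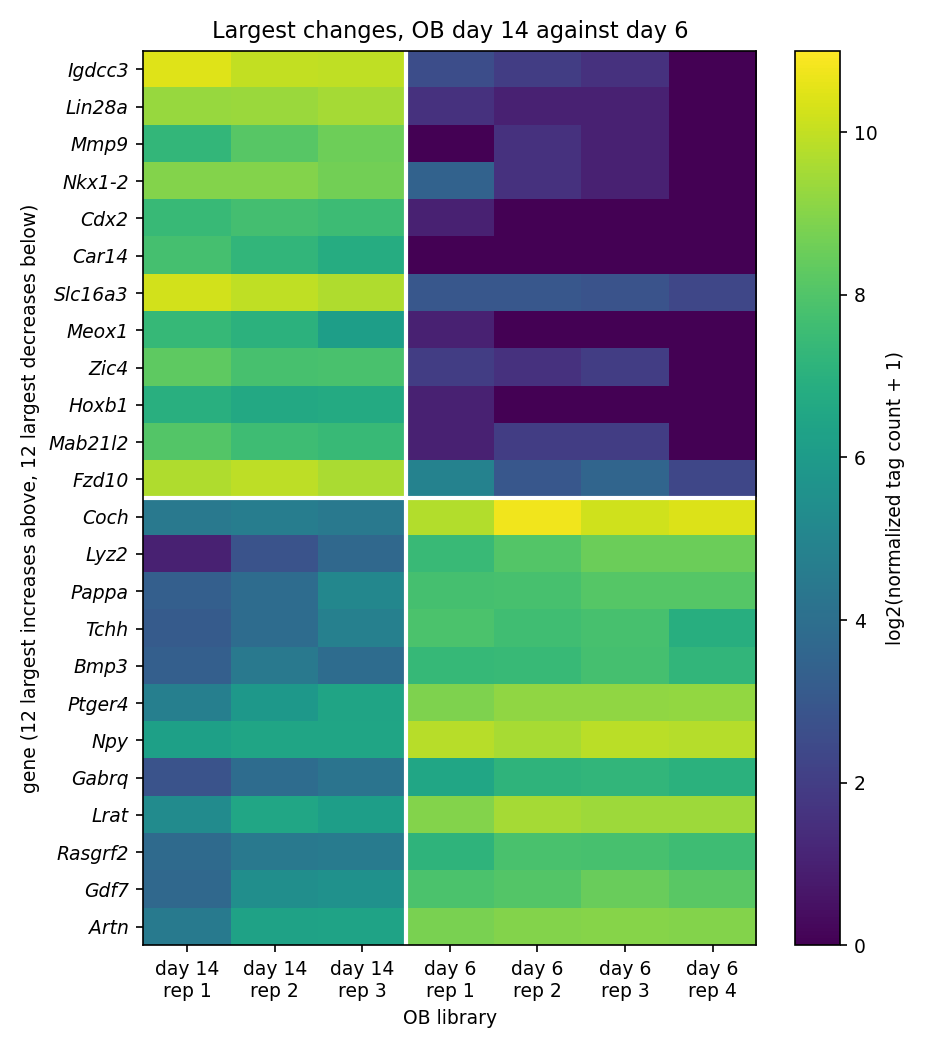
Log2(normalized tag count + 1), as colour, of the 12 genes with the largest increases (upper rows) and the 12 with the largest decreases (lower rows) under the naming rule, in the 3 OB day 14 libraries (left) and the 4 OB day 6 libraries (right). Lin28a, Cdx2, Car14, Meox1 and Hoxb1 are at 2 or lower in every day 6 library, while Coch and Npy are detected in every library of both days.

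Targets of Wnt signalling rose together. Of 19 tested Wnt target genes, 15 were called higher and 3 lower, with a median log2 change of 2.09, against 29.2% and 30.3% of all genes. Notum, a secreted enzyme that inactivates Wnt proteins, had 188, 232 and 187 at day 14, against 6, 4, 5 and 5 at day 6 (log2 change 5.09 ± 0.15, adjusted p = 4.49e-06). Tcf7, a transcription factor that acts with beta-catenin, had 670, 340 and 456, against 19, 10, 15 and 12 (5.01 ± 0.28, adjusted p = 2.95e-05). Neither gene's groups came near each other. Nkd2, an inhibitor inside the pathway, rose by 3.68 ± 0.20, and the receptor gene Fzd10, which is not in the list, had 820, 960 and 776, against 28, 7, 11 and 4 (6.29 ± 0.53). Axin2 (2.09 ± 0.19), Nkd1 (4.22 ± 0.40) and Lef1 (3.71 ± 0.49), widely used readouts of the pathway chosen after their values were seen, rose too. The members that fell were Ccnd1, the gene of cyclin D1 (-0.89 ± 0.09), and Sfrp1 (-1.72 ± 0.23) and Dkk3 (-0.90 ± 0.25), which encode secreted proteins of the Wnt inhibitor families.

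The promoters of T and Sp5 are shown because both genes are known targets of Wnt signalling in the caudal embryo and belong to both lists. Sp5, a zinc finger factor chosen after its values were seen, averaged 203 ± 46.2 at day 14 and 7.5 ± 11 at day 6 (SD, log2 change 5.34 ± 0.80, adjusted p = 0.00113). The sequences are the 250 bases before the transcription start, from RefSeq on GRCm38.p6, 5′ to 3′ on the gene's strand, with CTTTGA, a core of the TCF and LEF recognition motif, or its reverse complement in capitals.
Sp5 (chr2:70474673-70474922, plus strand): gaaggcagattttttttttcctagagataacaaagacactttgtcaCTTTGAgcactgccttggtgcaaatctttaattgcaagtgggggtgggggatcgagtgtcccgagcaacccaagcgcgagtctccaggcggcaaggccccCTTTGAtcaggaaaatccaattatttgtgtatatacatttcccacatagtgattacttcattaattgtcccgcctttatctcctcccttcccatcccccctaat
T (chr17:8434173-8434422, plus strand): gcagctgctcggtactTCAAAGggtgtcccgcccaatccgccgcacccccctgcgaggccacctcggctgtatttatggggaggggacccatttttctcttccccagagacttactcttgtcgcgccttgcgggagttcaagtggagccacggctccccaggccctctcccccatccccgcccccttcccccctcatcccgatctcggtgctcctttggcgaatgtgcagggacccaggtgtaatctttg
Sp5 held 2 matches, 204 and 104 bases before the start, and T held 1, 234 bases before it. The motif was searched on both strands, where it does not overlap itself, and 13.8% of 32851 promoter windows of this length held it. Among genes with any matching window, it was in 4 of 11 Wnt targets and in 12.6% of the 9876 tested genes that matched the table by symbol, with 12.1% of those called higher and 12.7% of those called lower. A match is a description of the letters and says nothing of binding.

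Feedback genes of FGF signalling, which reaches the nucleus through the kinase ERK, also rose more often than they fell, with 10 of 18 higher and 2 lower (median log2 change 0.91). Il17rd, a membrane inhibitor of FGF signalling also called Sef, had 996, 935 and 929 at day 14, against 84, 68, 82 and 79 at day 6 (3.59 ± 0.11, adjusted p = 4.83e-06). Dusp6, a phosphatase that switches off ERK, had 1537, 983 and 1087, against 280, 222, 334 and 220 (2.18 ± 0.21). Spry1, another inhibitor of the pathway, had 204, 111 and 244, against 22, 24, 18 and 25 (2.95 ± 0.27). The day 14 libraries lay above the day 6 libraries in each. Etv5, an ETS factor downstream of FGF, was lower by a small amount (-0.32 ± 0.09, adjusted p = 0.0134), as was Spred3, an inhibitor of Ras signalling (-0.65 ± 0.14). The ligands Fgf8, Fgf4 and Fgf5 were too low to be tested.

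Genes downstream of bone morphogenetic proteins rose on balance in these cultures, which received no BMP4. Of 15 tested BMP targets 9 were higher and 4 lower, with a median log2 change of 0.98. Id1, an inhibitor of differentiation that BMP signals induce directly, had 807, 549 and 514 at day 14, against 35, 33, 71 and 41 at day 6 (3.80 ± 0.29, adjusted p = 9.73e-05). Id3 had 946, 789 and 658, against 81, 49, 78 and 38 (3.73 ± 0.29), and Msx1, a homeobox target of BMP, had 606, 310 and 444, against 9, 16, 12 and 11 (5.10 ± 0.26). No day 6 library reached the lowest day 14 library in these genes. Several genes that fell encode regulators of the ligands. Grem1, a secreted BMP antagonist, had 429, 1117 and 1244, against 6248, 7097, 7097 and 7097 (-3.03 ± 0.35, adjusted p = 0.000391), and Bmper, a BMP-binding protein, had 8, 5 and 10, against 22, 30, 36 and 32 (-1.86 ± 0.24). Hey1, a target of both BMP and Notch (-1.30 ± 0.10), and Gata3 (-1.84 ± 0.14) fell as well. The BMP ligand gene Bmp3 was among the 12 largest decreases (-3.54 ± 0.26), with 9, 21 and 14 at day 14 and 165, 168, 214 and 148 at day 6, and so was Gdf7, another ligand of the family (-3.25 ± 0.44).

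The related TGF-beta and activin genes moved the other way on balance, with 6 of 22 higher and 11 lower (median -0.37). Fst, which encodes the activin antagonist follistatin, had 44, 72 and 64 at day 14, against 440, 386, 402 and 379 at day 6 (-2.75 ± 0.17, adjusted p = 4.91e-05). Ltbp2, a latent TGF-beta binding protein of the matrix, had 41, 74 and 70, against 525, 552, 486 and 572 (-3.14 ± 0.21), and the ligand gene Tgfb1 fell by 1.1 ± 0.15 on the log2 scale. The activin receptor Acvr2b (2.30 ± 0.23) and the TGF-beta receptor Tgfbr1 (0.92 ± 0.13) rose.

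In the Notch pathway 10 of 17 tested genes rose and 3 fell (median 1.06). The receptor Notch3 had 656, 746 and 607 at day 14, against 212, 172, 177 and 194 at day 6 (1.82 ± 0.12, adjusted p = 6.18e-05), and Lfng, a sugar transferase that tunes Notch receptors, had 96, 86 and 64, against 20, 19, 19 and 9 (2.27 ± 0.29). Both ligands that fell did so in every library. Dll4 had 4, 3 and 2, against 44, 67, 51 and 25 (-3.53 ± 0.33), and Jag1 had 136, 150 and 140, against 284, 316, 303 and 298 (-1.08 ± 0.09). Retinoic acid genes counted 10 of 17 higher and 2 lower (median 0.59). Among them Crabp2, which carries retinoic acid to its nuclear receptors, had 1170, 1000 and 988, against 80, 40, 40 and 19 (4.69 ± 0.41), and Stra6, the receptor for retinol-binding protein, had 722, 734 and 450, against 18, 19, 14 and 9 (5.33 ± 0.29). Aldh1a3, an enzyme that makes retinoic acid, fell (-1.35 ± 0.23), and the list's count of lower members was 1 without day 14 replicate 2 or day 6 replicate 1, 2 or 3. Outside the list Lrat, which stores retinol as esters, had 38, 89 and 71, against 502, 732, 662 and 670 (-3.33 ± 0.29).

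Nearly the whole Hox complement rose. Hox genes are homeobox genes in 4 clusters that specify position along the body axis, with low paralogue numbers acting anteriorly and high ones caudally. In the Hox A, B and C clusters 24 of 26 tested genes were higher and 0 lower, with a median log2 change of 2.04. In the Hox D cluster 7 of 8 were higher and 0 lower, with a median of 2.67. Hoxb2 had 168, 176 and 140 at day 14, against 21, 18, 17 and 17 at day 6 (3.07 ± 0.13, adjusted p = 1.24e-05). Hoxa9, of the trunk, had 734, 640 and 482, against 98, 76, 80 and 61 (2.96 ± 0.20), and Hoxd4 had 301, 250 and 230, against 18, 30, 24 and 22 (3.43 ± 0.18). The day 14 libraries stood above the day 6 libraries in each of these genes, and day 14 replicate 3 was the lowest of its group in all 3. The increase ran along the clusters, from Hoxb1 and Hoxd3 (5.23 ± 0.40) to Hoxb9 (2.74 ± 0.23) and Hoxc10 (2.92 ± 0.25), the last 2 chosen after their values were seen. The 3 tested genes that were not called were Hoxb4 (0.15 ± 0.12), Hoxc6 (0.46 ± 0.20) and Hoxd13 (-0.49 ± 0.26). Hoxc6 was called without day 14 replicate 2 (adjusted p = 0.0285). The caudal genes Hoxa13, Hoxb13, Hoxc12, Hoxc13 and Hoxd12 were too low to be tested.

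**Figure D3:**
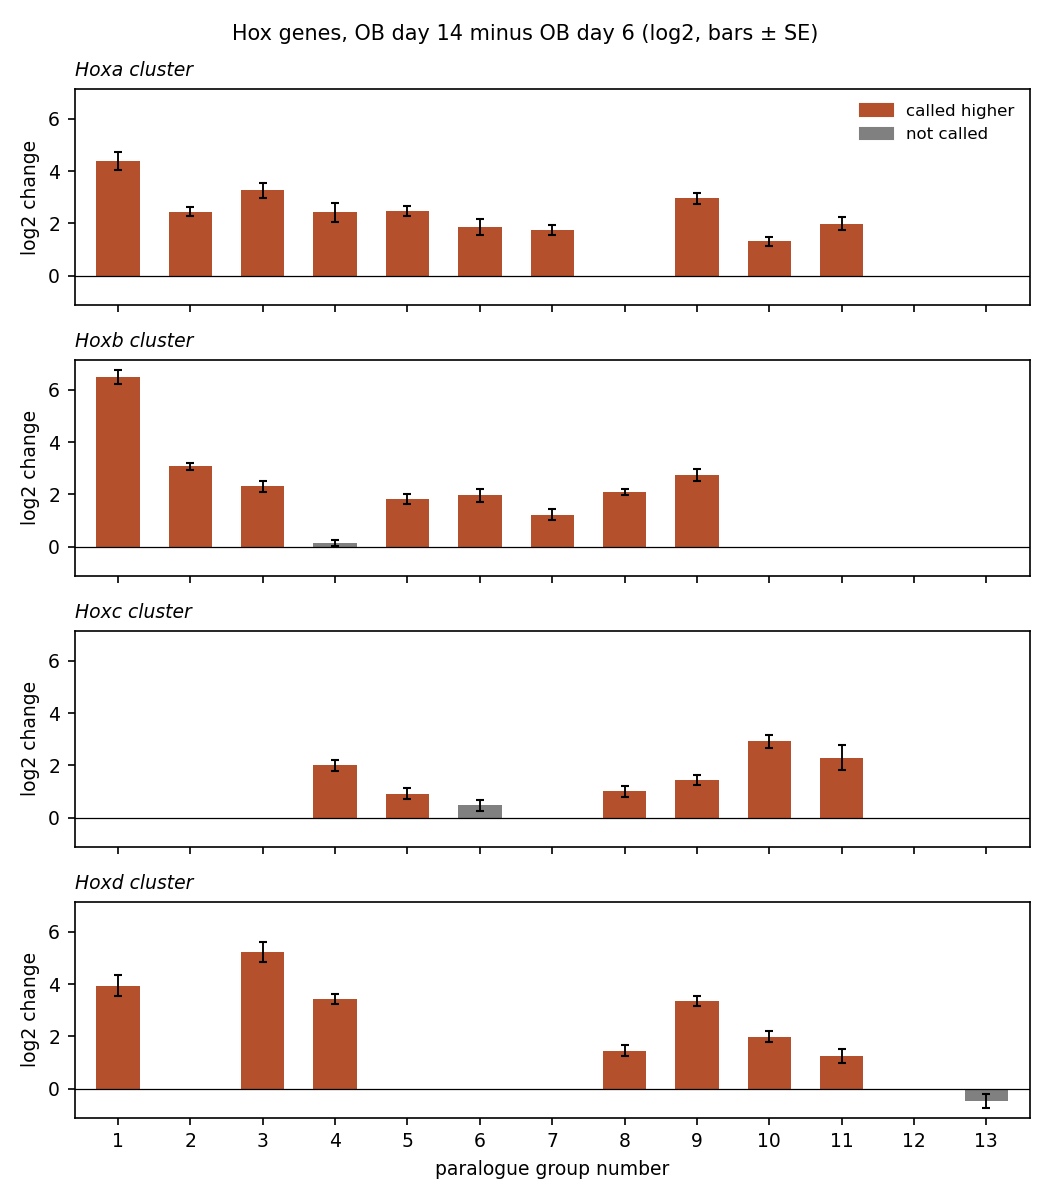
Log2 change, OB day 14 minus OB day 6, of each tested Hox gene by paralogue group number, 1 panel per cluster, with bars ± SE from the limma fit. Hoxb1 has the tallest bar (6.50), Hoxd13 alone lies below 0 (-0.49, not called), and the grey bars are the 3 genes that were not called.

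Several genes of the embryonic stem cell network, among them Nanog, Esrrb and Dppa5a, were near 0 at day 14, while Sox2 and Sall4 rose. Of 29 pluripotency genes only 15 were high enough to test, and of these 6 were higher and 5 lower (median 0.58), against 29.2% and 30.3% of all genes. Nanog, a core factor of the network, had 6, 4 and 5 at day 14 and 0, 1, 3 and 0 at day 6, against 2802 in the mESC library. Esrrb had 7, 2 and 1 at day 14 and 2, 0, 6 and 3 at day 6, against 2345, and Dppa5a had 4, 1 and 4 at day 14 and was listed at 0 at day 6, against 7086 in mESC. These 3 genes were near 0 in all 7 libraries. The members that rose besides Sox2 included Sall4, a zinc finger factor of early embryos, with 346, 330 and 292 at day 14 and 58, 27, 55 and 32 at day 6 (2.95 ± 0.28), and Trim71, an RNA-binding ligase of early development, with 278, 206 and 198 and with 7, 1, 5 and 2 (5.78 ± 0.47). Tfcp2l1, a factor of naive stem cells, fell, with 95, 194 and 104 at day 14 and 583, 540, 550 and 350 at day 6 (-1.99 ± 0.29), as did Klf4 (-1.29 ± 0.22) and Klf5 (-1.15 ± 0.17), of the Kruppel-like family used in reprogramming.

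Correlations over the genes tested describe the same libraries as a whole. With the mESC library they were 0.713 to 0.731 at day 14 and 0.635 to 0.642 at day 6. With the MEF library they were 0.75 to 0.774 at day 14 and 0.78 to 0.786 at day 6. The mESC library was at least 3 log2 units above the MEF library in 1300 genes. Of these, 553 were tested, with 263 higher and 115 lower in OB at day 14 (median 0.79). The other 747 were too low to be tested, 687 of them below 10 in all 7 libraries. A gene near 0 at day 6 was tested only if it reached 10 at day 14, which favours increases in this count. Of 1501 genes at least 3 units higher in the MEF library 1225 were tested and 276 were not. Of those tested, 254 were higher and 574 lower (median -0.47). These correlations are over genes that share 1 normalization and are given as a description.

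Oncofetal genes around Lin28 rose almost without exception, with 15 of 17 tested genes higher and 1 lower (median 1.51). Lin28b, the relative of Lin28a, had 410, 304 and 340 at day 14, against 69, 69, 75 and 59 at day 6 (2.35 ± 0.14, adjusted p = 3.76e-05). Arid3b, an AT-rich DNA-binding factor, had 547, 486 and 448, against 39, 48, 30 and 43 (3.61 ± 0.17), and E2f5, a cell-cycle factor, had 234, 216 and 220, against 53, 54, 58 and 57 (1.99 ± 0.09). In all of these the groups were far apart. Mycn, of the Myc family, had 247, 134 and 118, against 4, 1, 2 and 1 (5.83 ± 0.39). Hmga2, a chromatin protein of embryonic cells, averaged 4330 ± 2390 at day 14 and 1398 ± 209 at day 6 (SD, log2 change 1.51 ± 0.32), with day 14 replicate 1 the highest. Igf2bp1, an RNA-binding protein, rose by 1.40 ± 0.18, and the growth factor gene Gdf6 was the 1 member that fell (-2.62 ± 0.34). Hmga2 and Igf2bp1 were chosen after their values were seen.

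Lin28 proteins bind let-7 precursors, and let-7 in turn lowers transcripts whose 3′ UTRs pair with its seed, bases 2 to 8. The microRNAs themselves were not measured here. RefSeq on GRCm38.p6 gave 11 mature names of the family, of which 10 share the seed GAGGUAG. A few are shown with the seed in capitals to make the target sites readable.
mmu-let-7a-5p: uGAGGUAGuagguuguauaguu
mmu-let-7g-5p: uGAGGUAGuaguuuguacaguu
mmu-miR-98-5p: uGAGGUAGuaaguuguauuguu
The site searched for was CTACCTCA, the reverse complement of the seed followed by an A. Matches to the seed without that A were not counted, so a gene without this site may still hold one. In the longest 3′ UTR per gene (GENCODE M21, GRCm38), a site was found in Lin28b, Hmga2, Lin28a, Trim71 and others of the list, shown as 22 bases that end with the site, in capitals.
Lin28a (chr4:134005189-134005210, minus strand): cacagcctgttgaaCTACCTCA
Lin28b (chr10:45381022-45381043, minus strand): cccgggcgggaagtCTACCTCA
Hmga2 (chr10:120364224-120364245, minus strand): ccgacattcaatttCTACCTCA
Trim71 (chr9:114512376-114512397, minus strand): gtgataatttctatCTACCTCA
Igf2bp1 (chr11:95961778-95961799, minus strand): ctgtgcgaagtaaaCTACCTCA
Trim71 held 4 such sites, Igf2bp1 held 3 and Lin28a held 2. Of the list's members, 9 of 10 with a site rose and 6 of 7 without one rose. Over all genes, 31.1% of the 473 tested genes with at least 1 site were higher and 30.9% lower. The shares were 29.2% and 30.4% of the 12478 tested genes with a 3′ UTR. The 473 include the genes with 2 sites or more. Of the 25 genes with at least 2 sites 13 were higher and 4 lower (median 0.47), a small group that includes members of the list.

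Genes of cell division were higher nearly throughout. Of 40 DNA replication genes 39 were higher and 0 lower (median log2 change 1.45), and of 40 mitosis genes 39 were higher and 0 lower (median 1.43). Mcm7, a subunit of the replicative helicase, had 1431, 1408 and 1310 at day 14, against 358, 344, 326 and 278 at day 6 (2.08 ± 0.12, adjusted p = 3e-05). Bub1b, a spindle checkpoint kinase, had 845, 809 and 712, against 163, 153, 126 and 136 (2.44 ± 0.13, adjusted p = 2.56e-05). Top2a, a topoisomerase of dividing cells, had 4005, 3704 and 3020, against 1031, 1012, 772 and 814 (1.98 ± 0.16). The 2 groups were well separated in all 3. Mcm3 (1.70 ± 0.09), Mcm5 (1.69 ± 0.10), Kif23 (1.87 ± 0.12) and Kif11 (1.73 ± 0.13) behaved alike. Ribosome biogenesis and Myc genes also rose, 23 of 25 with 0 lower (median 0.96), among them Dkc1, which modifies ribosomal RNA, with 571, 471 and 518 at day 14, against 114, 104, 82 and 93 at day 6 (2.40 ± 0.14). Nop58 (1.55 ± 0.13), of the same particle class, and Cad (1.67 ± 0.12), which starts pyrimidine synthesis, rose as well.

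Inhibitors of the cell cycle and p53 targets went down. Among 7 CDK inhibitor genes 4 were lower and 1 higher (median -0.76). Cdkn1a, encoding p21, had 608, 730 and 916 at day 14, against 1616, 1693, 1779 and 1779 at day 6 (-1.21 ± 0.15, adjusted p = 0.00049). Cdkn2b (-1.0 ± 0.21) and Cdkn2a (-0.81 ± 0.30, adjusted p = 0.0476), the Ink4 locus, fell less clearly, and Cdkn2a had 57, 84 and 110 at day 14, against 103, 146, 216 and 128, so that its groups overlapped. Its call was lost without day 14 replicate 1 or 2 or day 6 replicate 2, 3 or 4 (adjusted p between 0.0679 and 0.151). The inhibitor Cdkn1c rose slightly (0.51 ± 0.14) and was not called with the spread pooled over all replicated groups (adjusted p = 0.0908). Of 26 p53 targets 17 were lower and 3 higher (median -0.75). Ccng1, cyclin G1, had 966, 1169 and 1553, against 5070, 4213, 7086 and 5070 (-2.12 ± 0.22), and Perp, a desmosomal and death-associated membrane protein, had 17, 36 and 34, against 200, 208, 256 and 221 (-2.95 ± 0.26). All day 14 libraries lay below all day 6 libraries in both. The exceptions were Pmaip1, the death gene Noxa, with 251, 267 and 240, against 35, 19, 34 and 23 (3.18 ± 0.22), Ddit4, an inhibitor of mTOR that low oxygen also induces (3.03 ± 0.32), and Trp53i11 (0.43 ± 0.13), which was not called without day 14 replicate 2 or 3 or day 6 replicate 2 or 4 (adjusted p between 0.0587 and 0.0916).

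Glucose metabolism showed some of the clearest changes. Of 25 glycolysis genes 19 were higher and 3 lower (median 1.27), and of 19 tested hypoxia response genes 16 were higher and 2 lower (median 1.31), with 1 lower without day 14 replicate 3 or day 6 replicate 2 or 3. Slc16a3, which exports lactate from cells, had 1205, 996 and 816 at day 14, against 7, 7, 6 and 4 at day 6 (7.17 ± 0.21, adjusted p = 4.49e-06). Slc2a3, a high-affinity glucose transporter, had 1850, 1749 and 1556, against 94, 79, 101 and 107 (4.16 ± 0.13). Pdk1, which keeps pyruvate out of mitochondria, had 976, 702 and 544, against 23, 19, 23 and 30 (4.88 ± 0.23). Each of these had day 14 replicate 1 as its highest library and replicate 3 as its lowest, with no overlap between days. The enzymes Pgk1 (3.28 ± 0.27) and Pfkl (2.64 ± 0.14) rose, and Pkm and Gapdh reached the ceiling in all day 14 libraries, so their log2 changes of 2.01 ± 0.13 and 1.55 ± 0.20 are lower bounds. These 4 were chosen after their values were seen. For Pkm and Gapdh the clipped day 14 values hide their scatter, so the SE may be too small. The isoenzyme genes Eno2 (-1.51 ± 0.18), Hk1 (-0.42 ± 0.10) and Ldhb (-0.54 ± 0.15) fell, the last not called without day 14 replicate 1 (adjusted p = 0.0545).

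Low-oxygen genes outside glycolysis followed. Bnip3, a mitochondrial protein that promotes mitophagy, had 1593, 1046 and 863 at day 14, against 156, 184, 174 and 160 at day 6 (2.74 ± 0.20, adjusted p = 9.03e-05). Ak4, a mitochondrial kinase, had 447, 370 and 246, against 30, 18, 20 and 11 (4.14 ± 0.34), and Vegfa, the vascular growth factor, had 1364, 885 and 680, against 264, 168, 216 and 212 (2.14 ± 0.25). In every one replicate 1 of day 14 was highest and no day 6 library reached the lowest day 14 value. Egln1, an oxygen sensor that the pathway itself induces, rose by 1.75 ± 0.17. Ankrd37 (-1.74 ± 0.20) and Ndrg1 (-0.52 ± 0.16), both known to be induced by low oxygen, fell, and Ndrg1 was not called without day 14 replicate 3 or day 6 replicate 2 or 3 (adjusted p between 0.0561 and 0.0655). Oxygen in the cultures is not described in the sources used here.

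The promoters of 4 genes that rose are printed because hypoxia-inducible factors bind the core ACGTG or GCGTG. They were picked by hand, and Slc2a3 and Ak4, which rose more than Slc2a1 and Bnip3, are not shown. They are the 250 bases before the start, RefSeq on GRCm38.p6, 5′ to 3′ on the gene's strand, with either core or its reverse complement in capitals. Bnip3 is on the minus strand. RefSeq places these starts differently from GENCODE M21, whose gene spans are the ones given with gene names here. In GENCODE the Slc16a3, Slc2a1 and Bnip3 genes start farther upstream, so that the whole Slc16a3 window and the end of the Slc2a1 and Bnip3 windows lie inside the gene.
Slc16a3 (chr11:120948817-120949066, plus strand): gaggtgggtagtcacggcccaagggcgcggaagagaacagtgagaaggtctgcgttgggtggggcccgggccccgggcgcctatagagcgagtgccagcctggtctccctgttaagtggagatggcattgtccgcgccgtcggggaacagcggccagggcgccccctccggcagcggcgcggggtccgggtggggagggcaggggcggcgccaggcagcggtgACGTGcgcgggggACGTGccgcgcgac
Slc2a1 (chr4:119108495-119108744, plus strand): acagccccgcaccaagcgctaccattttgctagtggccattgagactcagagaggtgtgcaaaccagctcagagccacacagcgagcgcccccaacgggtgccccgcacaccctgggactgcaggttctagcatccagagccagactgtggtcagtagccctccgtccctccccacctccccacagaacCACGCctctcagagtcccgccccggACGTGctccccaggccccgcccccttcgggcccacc
Pdk1 (chr2:71872974-71873223, plus strand): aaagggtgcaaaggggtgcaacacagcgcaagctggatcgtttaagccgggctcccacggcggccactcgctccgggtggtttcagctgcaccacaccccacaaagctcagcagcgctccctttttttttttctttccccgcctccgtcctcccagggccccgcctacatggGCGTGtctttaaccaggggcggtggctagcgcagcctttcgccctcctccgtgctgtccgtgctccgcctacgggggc
Bnip3 (chr7:138909507-138909756, minus strand): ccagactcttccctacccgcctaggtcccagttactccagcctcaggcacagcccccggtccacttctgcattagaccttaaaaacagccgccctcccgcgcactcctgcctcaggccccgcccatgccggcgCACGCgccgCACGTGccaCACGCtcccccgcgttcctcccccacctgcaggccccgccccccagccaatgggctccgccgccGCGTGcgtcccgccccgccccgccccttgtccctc
Slc16a3 and Slc2a1 held 2 separate matches each, Bnip3 held 4, counting overlapping matches on the 2 strands as 1, and the first of 2 annotated Pdk1 windows held 1. The cores were searched on both strands. They are short and rich in CpG, and 38.6% of the 32851 windows held at least 1. Among tested genes with a window, 21 of 24 glycolysis genes and 14 of 15 hypoxia response genes held a core, against 61.7% of 9876 tested genes, 61.7% of those called higher and 61.4% of those called lower.

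Other branches of metabolism moved less. Of 20 serine, glycine and one-carbon genes 14 were higher and 3 lower (median 0.78), among them Mthfd1l, a mitochondrial folate enzyme (1.99 ± 0.15), while Aldh1l1, which removes one-carbon folate, fell (-1.94 ± 0.21). Cholesterol synthesis had 13 of 22 higher and 0 lower (median 0.54), with Mvd at 666, 530 and 538 at day 14 and 224, 280, 252 and 232 at day 6 (1.22 ± 0.13) and the rate-controlling enzyme gene Sqle higher by 0.95 ± 0.11. Nuclear genes of oxidative phosphorylation differed little, with 12 of 50 higher and 4 lower (median 0.09), below the background shares. The ATP synthase genes Atp5a1 (0.60 ± 0.10) and Atp5c1 (0.59 ± 0.09) were among those that rose, and Ndufa1 (-0.71 ± 0.12) and Uqcrb (-0.47 ± 0.10), subunits of complexes I and III, among those that fell. The amino acid stress response was even, with 3 of 18 in each direction (median -0.02). Its downward count was 5 without day 14 replicate 1. Asns, asparagine synthetase, rose by 0.75 ± 0.10, and Ddit3, the stress factor Chop, fell by 1.13 ± 0.15.

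Chromatin regulators moved both ways, with more members called higher than lower in each class, against 29.2% and 30.3% of all genes. Besides Kdm2b, 9 PRC1.1 genes were tested, of which Yaf2 (0.85 ± 0.12), Usp7 (0.67 ± 0.11), Skp1a (0.58 ± 0.12) and Rnf2 (0.62 ± 0.14) rose modestly and the others were not called. Of 12 genes of PRC2, which methylates histone H3K27, 7 were higher and 4 lower (median 0.56). Ezh2, its catalytic subunit, had 856, 868 and 754 at day 14, against 228, 262, 238 and 266 at day 6 (1.73 ± 0.11, adjusted p = 4.77e-05), while Ezh1, the alternative catalytic subunit, fell (-0.67 ± 0.22), a call lost without day 14 replicate 1 or 3 or day 6 replicate 2 or 4 (adjusted p between 0.0635 and 0.0955). Jarid2, a PRC2 cofactor of stem cells, had 1134, 938 and 759, against 207, 136, 135 and 182 (2.51 ± 0.21). Both groups were separated for Ezh2 and Jarid2. Among 17 other PRC1 genes 7 were higher and 4 lower (median 0.14), with Cbx2 at 472, 345 and 364, against 51, 51, 60 and 57 (2.81 ± 0.14), and with Cbx6 (-0.67 ± 0.10) and Bmi1 (-0.49 ± 0.11) lower. Of 13 DNA methylation and TET genes 8 were higher and 1 lower (median 0.58), with 2 lower without day 14 replicate 1. Dnmt3b, which sets new methylation, had 168, 114 and 116, against 10, 13, 14 and 4 (3.67 ± 0.38), Tet1, which oxidises methylcytosine, had 298, 190 and 157, against 54, 51, 48 and 40 (2.09 ± 0.22), and Uhrf1, a partner of Dnmt1 at replication, rose by 1.54 ± 0.10. Tet3 fell (-0.46 ± 0.13) and was not called without day 14 replicate 3 (adjusted p = 0.055).

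**Figure D4:**
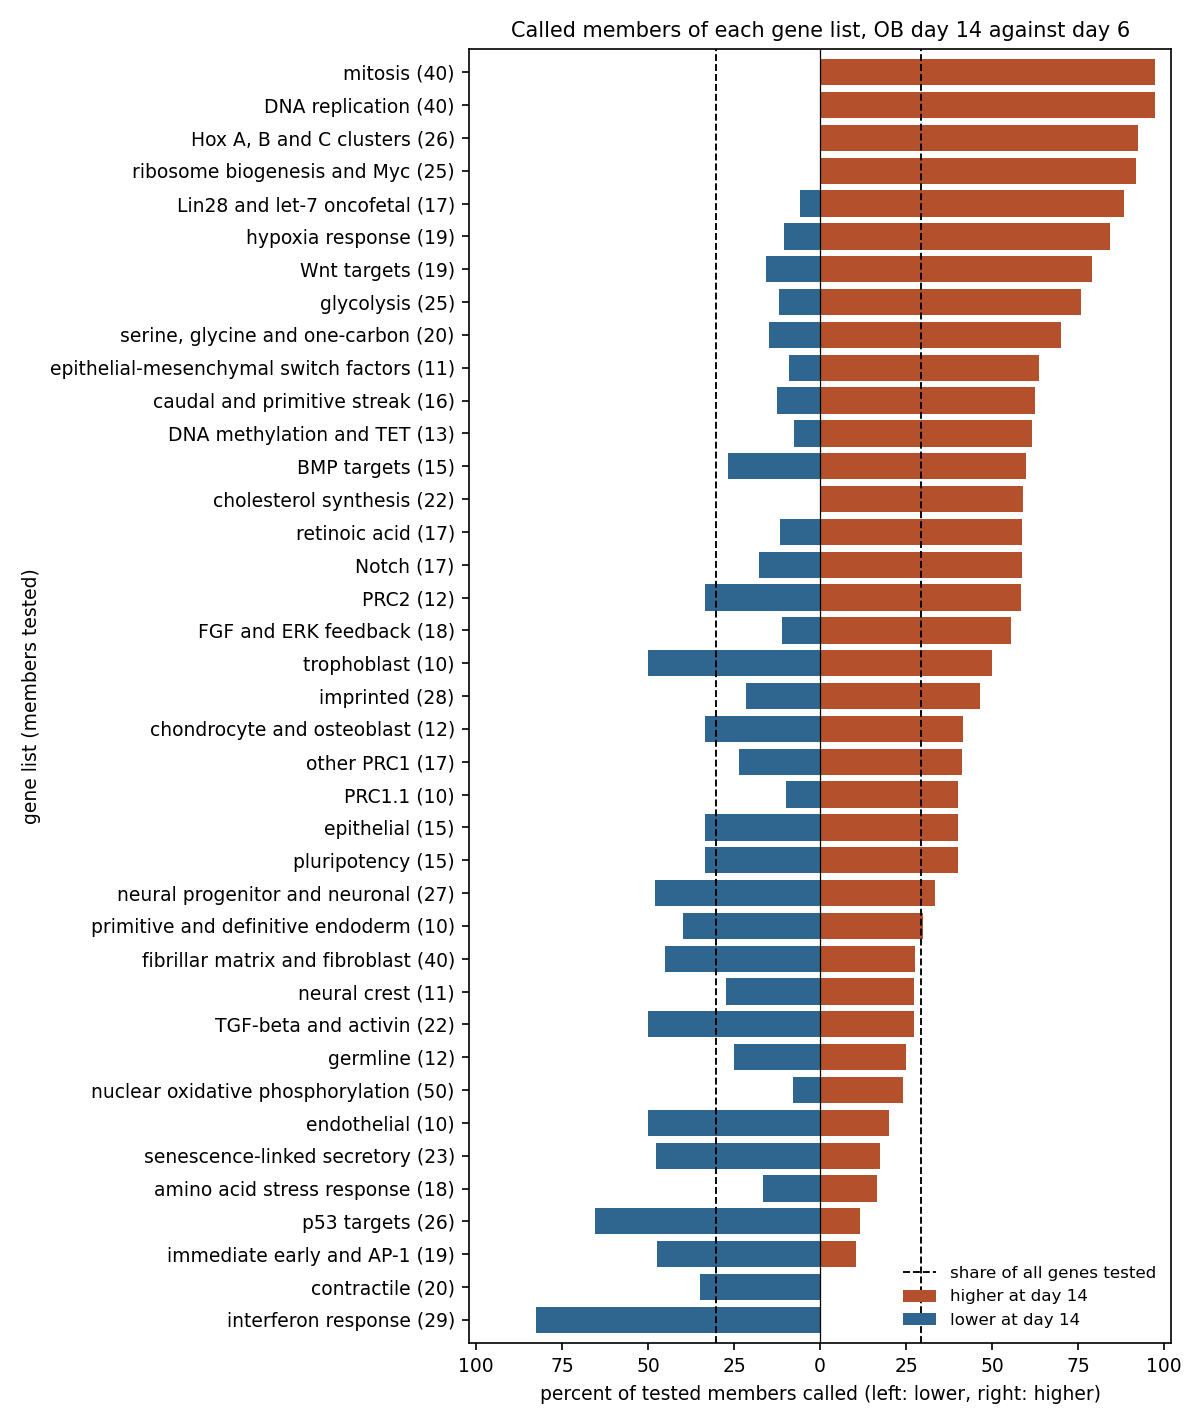
Percent of the tested members of each gene list with at least 10 tested members that were called higher (right) or lower (left) at OB day 14 against OB day 6, with dashed lines at the shares of all genes tested, 29.2% and 30.3%. Mitosis and DNA replication (39 of 40 each) and the Hox A, B and C clusters (24 of 26) lie farthest to the right, and interferon response (24 of 29 lower) farthest to the left.

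The 12 largest decreases were Coch, Lyz2, Pappa, Tchh, Bmp3, Ptger4, Npy, Gabrq, Lrat, Rasgrf2, Gdf7 and Artn. Coch, which encodes the secreted matrix protein cochlin, had 21, 24 and 21 at day 14, against 858, 1751, 1173 and 1380 at day 6 (-5.77 ± 0.23, adjusted p = 1.17e-05). Pappa, a protease that frees IGF from its binding proteins, had 9, 14 and 33, against 216, 220, 271 and 276 (-3.83 ± 0.38). Npy, the precursor of neuropeptide Y, had 76, 88 and 87, against 896, 744, 941 and 879 (-3.35 ± 0.12, adjusted p = 7.55e-06). The naming rule itself required that the groups of each gene not overlap. Ptger4, a receptor for prostaglandin E2, fell to 26, 57 and 84 at day 14, against 471, 570, 570 and 588 at day 6 (-3.43 ± 0.35), and Artn, a ligand of the GDNF family, to 22, 80 and 83, against 440, 502, 514 and 503 (-3.18 ± 0.43). In Pappa, Ptger4 and Artn day 14 replicate 1 was the lowest library.

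Neural genes split. Of 27 tested neural progenitor and neuronal genes 9 were higher and 13 lower (median -0.20). Those that rose included Zic1, a zinc finger factor of the dorsal neural tube and somites, with 1230, 1106 and 922 at day 14, against 70, 41, 55 and 42 at day 6 (4.38 ± 0.21, adjusted p = 1.95e-05), Msi1, an RNA-binding protein of progenitors, with 402, 307 and 318, against 26, 7, 18 and 17 (4.37 ± 0.38), and Pax3, of dorsal neural and somite cells, with 35, 40 and 22, against 2, 1, 4 and 2 (3.39 ± 0.33). Those that fell included Fezf1, a forebrain factor, with 55, 135 and 94, against 846, 674, 846 and 583 (-3.02 ± 0.30), Sox3, with 57, 105 and 72, against 393, 450, 382 and 364 (-2.37 ± 0.20), and the neuronal cytoskeleton gene Nefm, with 410, 530 and 622, against 1817, 1352, 1696 and 1638 (-1.65 ± 0.17). The libraries of the days did not overlap in these 6 genes, which were named for their small adjusted p. Stmn2, a microtubule regulator of neurons, fell by 1.68 ± 0.13.

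Fibroblast and matrix genes also moved both ways, with 11 of 40 higher and 18 lower (median -0.50). Thbs2, a matricellular thrombospondin, had 554, 792 and 1062 at day 14, against 4217, 5617, 5078 and 5617 at day 6 (-2.72 ± 0.23, adjusted p = 0.000118). Col5a1 (-1.03 ± 0.11) and Col5a2 (-0.89 ± 0.10), chains of a fibril-forming collagen, fell, while the fibroblast markers Col1a1 (-0.24 ± 0.14, adjusted p = 0.173) and Col3a1 (-0.50 ± 0.29, adjusted p = 0.177) were not called. The surface marker Thy1 was lower, with 376, 436 and 560 at day 14 and 831, 756, 770 and 792 at day 6 (-0.80 ± 0.14). Rising members included the platelet-derived growth factor receptors, with Pdgfra at 607, 540 and 672 and at 196, 226, 224 and 184 (1.54 ± 0.13) and Pdgfrb at 721, 546 and 593 and at 170, 127, 115 and 106 (2.26 ± 0.19). Serpinf1 (1.97 ± 0.16) and Fbln1 (1.92 ± 0.16), secreted proteins of mesenchyme, rose too. Of 20 contractile genes 0 were higher and 7 lower (median -0.38), among them Des, the muscle filament desmin, with 407, 1062 and 800 at day 14 and 1968, 1935, 1890 and 1890 at day 6 (-1.45 ± 0.29), and Myocd, a coactivator of smooth muscle genes (-1.57 ± 0.18).

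Epithelial genes were mixed, and mesenchymal regulators rose. Of 15 tested epithelial genes 6 were higher and 5 lower (median -0.22), and 20 of the list's 35 genes were not tested. Cdh1, encoding E-cadherin, had 66, 34 and 12 at day 14, against 2, 2, 0 and 0 at day 6 (4.17 ± 0.66, adjusted p = 0.00138), and Epcam had 50, 47 and 18, against 8, 10, 14 and 8 (1.74 ± 0.37), a call lost with the spread pooled over all replicated groups (adjusted p = 0.0668). Both were lowest in day 14 replicate 3, though still above day 6. Desmoplakin, Dsp, fell, with 346, 288 and 135, against 837, 879, 773 and 830 (-1.80 ± 0.30). Among 11 factors of the epithelial to mesenchymal switch 7 were higher and 1 lower (median 0.54). Prrx2, a mesenchymal homeobox factor, had 272, 114 and 134, against 4, 4, 4 and 2 (5.20 ± 0.33), and Snai1, a repressor of E-cadherin, had 384, 174 and 162, against 18, 8, 16 and 10 (4.05 ± 0.38). Its relative Snai2 fell, with 55, 40 and 55, against 118, 147, 128 and 134 (-1.39 ± 0.15).

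Interferon response genes fell as a group, with 24 of 29 tested members lower and 0 higher (median -1.36). Irf7, the master regulator of type I interferon, had 9, 13 and 10 at day 14, against 85, 99, 82 and 64 at day 6 (-2.84 ± 0.18, adjusted p = 4.96e-05). Ddx58, the RNA sensor RIG-I, had 134, 162 and 137, against 441, 420, 414 and 428 (-1.56 ± 0.10), and Trim25, which activates it, had 134, 168 and 130, against 354, 366, 373 and 339 (-1.32 ± 0.12). No library of day 14 reached day 6 in these genes. Markers of macrophages and leukocytes moved with them. Of 8 tested leukocyte genes 7 were lower and 1 higher (median -3.24), with 4 lower without day 6 replicate 2, 3 or 4 and 0 higher without day 14 replicate 1 or 2. A further 6 were not tested. A gene near 0 at day 14 was tested only if it reached 10 at day 6, which favours decreases in this count and median. The summed level of the 14 measured genes was 26 to 51 at day 14 and 331 to 562 at day 6. Lyz2, the lysozyme of myeloid cells, had 1, 6 and 12, against 172, 269, 366 and 374 (-5.64 ± 0.61), and Cd68 had 4, 4 and 6, against 59, 82, 72 and 81 (-3.72 ± 0.17). Ptprc, the leukocyte antigen CD45, had 0, 22 and 8, against 46, 46, 30 and 28 (-2.67 ± 0.95), a call lost without day 14 replicate 3 or any 1 of the day 6 libraries (adjusted p between 0.0626 and 0.0855). Tyrobp and Fcer1g, adaptors of myeloid receptors, were listed at 0 in all day 14 libraries. The part of such cells in the interferon result was not tested.

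Secreted and stress-linked genes were lower on balance. Of 23 tested genes linked to the senescent secretome 11 were lower and 4 higher (median -0.67). Igfbp5, an IGF-binding protein, had 1812, 2410 and 2345 at day 14, against 9297, 6241, 7088 and 6241 at day 6 (-1.71 ± 0.18), and Areg, an EGF-family ligand, had 11, 14 and 12, against 62, 64, 90 and 60 (-2.38 ± 0.17). Its relative among the binding proteins, Igfbp4, rose instead, with 2008, 1450 and 1431, against 98, 72, 92 and 63 (4.31 ± 0.20), and so did Mmp9, a gelatinase, with 154, 280 and 384, against 0, 2, 1 and 0 (7.35 ± 0.47). Immediate early and AP-1 genes had 2 of 19 higher and 9 lower (median -0.52). Fosl1, an AP-1 subunit, had 14, 4 and 12, against 60, 84, 73 and 64 (-2.83 ± 0.37), and Klf6 had 236, 314 and 344, against 898, 874, 728 and 832 (-1.49 ± 0.15). Ier2 (1.88 ± 0.12) and Myc (1.51 ± 0.32) rose.

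Imprinted genes, expressed from 1 parental copy, had 13 of 28 tested higher and 6 lower (median 0.31). Peg3, a zinc finger protein expressed from the paternal copy, had 4217, 2886 and 2720 at day 14, against 376, 290, 427 and 311 at day 6 (3.21 ± 0.20, adjusted p = 4.91e-05). Mest had 7092, 5617 and 6244, against 1936, 1662, 1936 and 1555 (1.83 ± 0.13). Peg10, a retrotransposon-derived gene needed in the placenta, had 18690, 5616 and 4217, against 826, 510, 831 and 507 (3.55 ± 0.50), a lower bound because day 14 replicate 1 is at the ceiling. All 3 were higher in every day 14 library. Igf2r, the receptor that clears IGF2, fell (-0.62 ± 0.10).

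Lists for other cell types gave no uniform pattern. Trophoblast genes had 5 of 10 higher and 5 lower, with Tfap2c higher (3.63 ± 0.47) and Tfap2a lower (-1.77 ± 0.16). Endoderm genes had 3 of 10 higher and 4 lower, with the basement membrane gene Lama1 higher (3.33 ± 0.28) and the endoderm factor Gata6 lower (-1.71 ± 0.22). Germline genes had 3 of 12 in each direction, and 5 lower without day 6 replicate 4. Neural crest genes had 3 of 11 in each direction, with the receptor Ngfr higher (3.20 ± 0.28) and Foxd3 at 1, 1 and 0 at day 14, against 19, 31, 26 and 18 (-3.91 ± 0.30). Of 12 chondrocyte and osteoblast genes 5 were higher and 4 lower (median 0.97). Col2a1, the cartilage collagen, had 330, 388 and 352, against 15, 15, 25 and 22 (4.17 ± 0.20), while the bone regulator Runx2 had 44, 39 and 49, against 180, 136, 152 and 126 (-1.73 ± 0.15). Of 10 endothelial genes 5 were lower and 2 higher, and 3 were lower without day 14 replicate 1. Their receptor gene Kdr had 6, 18 and 25, against 62, 138, 72 and 94. The defining markers Krt5 and Krt14 of keratinocytes, Myod1 and Myog of muscle and Adipoq of fat cells were at 0 or 1 in all 7 libraries.

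Whether these changes differed from those of ODR over the same days was tested directly, as OB change minus ODR change. The 13088 genes tested gave 5361 (41.0%) that differed, 2668 (20.4%) with the OB change higher and 2693 (20.6%) with it lower. Lin28a was listed at 0 in every ODR library of both days, and the difference was 8.50 ± 0.44 on the log2 scale (adjusted p = 6.62e-06), the whole of the OB change. Cdx2 was at 0 in the ODR day 14 libraries and at 0 and 1 in the ODR day 6 libraries (difference 7.80 ± 0.44, adjusted p = 7.62e-06). Slc2a1 had 364, 355 and 336 in ODR at day 14 and 344 and 419 at day 6 (3.26 ± 0.18, adjusted p = 6.62e-06). None of these 3 genes was higher in all ODR day 14 libraries than in both ODR day 6 libraries. Sox2 was somewhat higher in ODR at day 14, with 6, 10 and 8 against 1 and 2 at day 6, and its difference was 4.27 ± 0.34 (adjusted p = 5.05e-05). The largest positive differences by the naming rule also included Mab21l2, a factor of eye development (7.60 ± 1.04), Nkx1-2 (7.35 ± 0.95), Zic4 (7.27 ± 0.73) and Psd2, an exchange factor for Arf6 (7.0 ± 1.04).

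The largest negative differences from ODR were mostly of genes that rose in ODR by its own test, Bmp3 being the exception. They were Npbwr1, a neuropeptide receptor (-5.03 ± 0.70), Tub, the tubby gene (-4.75 ± 0.58), Bmp3 (-4.47 ± 0.43), Thbs4, a thrombospondin (-4.23 ± 0.74), Reln, the secreted guidance protein reelin (-4.22 ± 0.37), and Nt5e, the ectonucleotidase CD73 (-4.18 ± 0.56). Reln had 161, 290 and 337 in OB at day 14 and 1398, 1338, 1698 and 1640 at day 6, against 721, 666 and 494 in ODR at day 14 and 179 and 221 at day 6. OB had lower values at day 14 and ODR had higher ones, without overlap in either. Nt5e had 704, 2012 and 1636 in OB at day 14 and 3012, 3694, 2412 and 3012 at day 6. In ODR it had 9302, 18690 and 18690 at day 14 and 1936 and 1779 at day 6, so its difference is a lower bound in size.

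By list, the OB change exceeded the ODR change in 38 of 40 replication genes, 39 of 40 mitosis genes, 22 of 27 Hox A, B and C genes, 20 of 25 glycolysis genes, 14 of 17 Lin28 and let-7 genes, 12 of 20 Wnt targets and 11 of 16 caudal genes. It was lower in 13 of 26 p53 targets, 11 of 31 interferon genes and 11 of 27 neural genes. The shares over all genes were 20.4% higher and 20.6% lower. Among the lists named first, it was lower in 1 glycolysis gene, 1 Lin28 and let-7 gene, 3 Wnt targets and 2 caudal genes, and in 0 of the others. It was higher in 2 p53 targets, 0 interferon genes and 5 neural genes. Of the genes called higher in OB, 2441 also differed from ODR in that direction, as did 2316 of those called lower.

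The same test against OA covered 13162 genes, with 3631 (27.6%) that differed, 1923 (14.6%) with the OB change higher and 1708 (13.0%) lower. Here 2 of the 3 OA day 14 libraries stand apart. The library labelled OA day 14 replicate 2 had 721 for Kdm2a, which every other OA library of either day holds at the ceiling, and so stands apart from them. OA day 14 replicate 1 had the 12 genes with the largest OB increases at a median of 12.9% of the OB day 14 mean, from 3.27% for Meox1 to 140% for Mmp9. Its correlation with the OB day 14 libraries was 0.858 to 0.907, against 0.791 to 0.866 for the other OA day 14 libraries. Without replicate 1 of OA day 14 4003 genes differed, and without the library labelled replicate 2 4350 genes differed.

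Sox2 had 19, 1 and 1 in OA at day 14 and 0, 6 and 2 at day 6, and the OB change exceeded the OA change by 5.48 ± 1.16 (adjusted p = 0.00756), by 6.59 ± 0.79 without OA day 14 replicate 1 and by 4.93 ± 1.18 without the library labelled replicate 2. Lin28a had 69, 8 and 4 in OA at day 14 and was listed at 0 in OA at day 6 (difference 4.63 ± 1.04, adjusted p = 0.00953, and 5.76 ± 0.50 and 4.28 ± 1.1 without those libraries in turn). Slc2a1 had 544, 607 and 432 in OA at day 14 and 422, 362 and 347 at day 6 (2.67 ± 0.20, adjusted p = 0.000151). Cdx2 had 23, 2 and 2 in OA at day 14 and was listed at 0 at day 6 (4.72 ± 0.89, adjusted p = 0.00447, and 5.72 ± 0.35 and 4.22 ± 0.87 without those libraries in turn). All 4 markers thus differed from both combinations, and OA day 14 replicate 1 was the highest OA library in Sox2, Lin28a and Cdx2. Nkx1-2, with 64, 3 and 5 in OA at day 14, was not called against OA with all libraries (adjusted p = 0.057) and was called without that library (5.06 ± 0.98, adjusted p = 0.00511), without OB day 6 replicate 1 (4.46, adjusted p = 0.0255) and with a pseudocount of 5 (4.15, adjusted p = 0.00711).

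**Figure D5:**
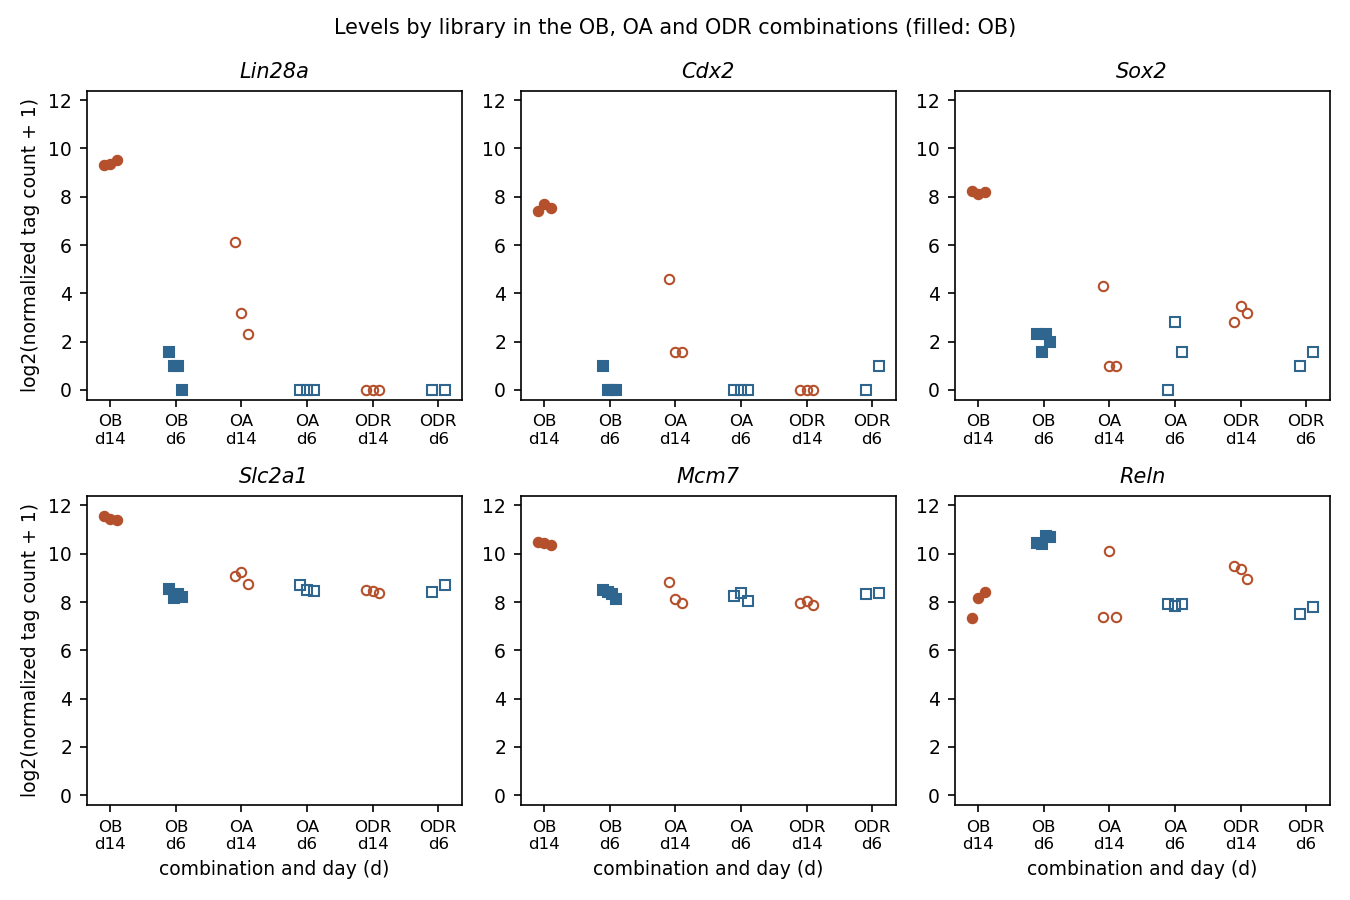
Log2(normalized tag count + 1) of 6 genes in each library of OB, OA and ODR at day 14 (circles) and day 6 (squares), with OB filled. Lin28a, Cdx2, Sox2, Slc2a1 and Mcm7 are highest in the 3 OB day 14 libraries, 1 OA day 14 library lies above the other OA libraries in Lin28a, Cdx2 and Sox2, and Reln falls in OB where it rises in ODR.

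The largest positive differences from OA were Car14, a membrane carbonic anhydrase (6.55 ± 0.90), Meox1 (5.51 ± 0.70), Sox2, Psd2 (5.33 ± 1.13), Kbtbd11, a Kelch-repeat protein (4.90 ± 0.89), and Dpysl4, a protein of the CRMP family (4.89 ± 0.59). The largest negative ones were Rgs7bp, a partner of G-protein regulators (-4.78 ± 0.80), Coch (-4.15 ± 1.09), Aldh3a1, an aldehyde dehydrogenase (-3.44 ± 0.59), Rai2 (-3.38 ± 0.87), Adamts2, which trims procollagen (-3.19 ± 0.60), and Hey1 (-3.17 ± 0.49). All 12 were called without either of those libraries in turn, and Coch, with 156, 2289 and 177 in OA at day 14, differed by -4.82 ± 1.04 without replicate 1 and by -2.89 ± 0.33 without the library labelled replicate 2.

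By list, the OB change exceeded the OA change in 35 of 40 replication genes, 34 of 40 mitosis genes, 17 of 25 glycolysis genes, 14 of 17 Lin28 and let-7 genes and 12 of 26 Hox A, B and C genes. Leaving out OA day 14 replicate 1 made these counts 36, 37, 13, 15 and 13, and leaving out the library labelled replicate 2 made them 37, 34, 18, 14 and 16. In Wnt targets, BMP targets and caudal genes the OB change was higher in 2 of 20, 1 of 15 and 4 of 17 and lower in 2, 3 and 0. The shares over all genes were 14.6% higher and 13.0% lower. The median differences of these lists were 0.88, 0.08 and 1.80, and only the caudal genes lay above the share called higher. Without OA day 14 replicate 1 the OB change was higher in 6 of 20, 0 of 15 and 9 of 17 and lower in 2, 3 and 0. Without the library labelled replicate 2 it was higher in 4 of 19, 5 of 15 and 5 of 16 and lower in 3, 3 and 1. The Wnt target Notum had 46, 81 and 24 in OA at day 14 and 1, 0 and 0 at day 6. Its difference between the combinations was -0.10 ± 0.53 (adjusted p = 0.907). The OB change was lower than the OA change in 13 of 32 interferon genes and in 11 of 26 p53 targets, and higher in 0 and 2.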

How the data were processed

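RNA was extracted with Trizol, and libraries of poly-A selected RNA were made with the VAHTS mRNA-seq V2 kit, per the labels' protocols. The submitters' processing notes name bcl2fastq, Bowtie2 2.2.5, RSEM and mm10 without their order. The authors deposited 1 table of 21350 genes and 35 libraries, whose values were treated as a score, normalized tag counts rounded to whole numbers. That unit was read from the deposited values, which are all whole, have nearly equal totals and share 1 maximum. How they were normalized is not stated, so depth is unknown, no counting interval can be given, and levels were not compared between genes.

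From these values log2(value + 1) was computed, genes with 10 or more in at least 2 libraries of a comparison were kept, and limma 3.58.1 in R 4.3.3 gave log2 changes, standard errors (SE) and two-sided p-values with Benjamini-Hochberg adjustment over all genes kept. Every adjusted p in the text is from limma, called below 0.05. The first comparison used the 7 OB libraries with 5 residual degrees of freedom. The comparisons with ODR (12 libraries) and OA (13 libraries) tested the difference of the changes. The ODR day 6 library identical to one with BMP4 was left out. The fits were tested on simulated data with normal scatter, few changed genes and no ceiling. In the data here most genes were called and some values were clipped, which the simulation did not cover.

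Named genes were the factors, the markers, the 12 largest changes in each direction, the 6 largest in each direction of each difference, by the rule given with the results, and up to 4 members per direction of each list by adjusted p. This rule skipped predicted genes and clones. The members and lists were chosen with earlier results of these data known, and genes named outside the rule were chosen after their values were seen. Alternatives were a pseudocount of 5, no filter or a filter of 50 in at least 3 libraries, a replicate block, a pooled spread, median centring, trend and robust options, a log2 change of at least 1, and leaving out each library. Names, promoters and microRNAs were matched by symbol or name to RefSeq tables.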

Additional observations from a re-analysis of the deposited data

Results flagged for a closer look

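Of 214 genes named in the text, 18 had 1 of the 4 OB day 6 libraries apart from the other 3, with a gap to the nearest library, relative to the group's range, above Dixon's critical value for 4 samples. That value is meant to set a library apart in about 1 in 20 groups of continuous, normally spread values. The values here are whole numbers, and where 3 libraries tie, the other passes it whatever the size of its gap. The 18 genes therefore cannot be set against that rate. Replicate 1 was the library apart in 12 of the 18. It was the highest for Nkd1 with 88 (next 32), Sp5 with 24 (next 3), Tfap2c with 19 (next 7), Tfap2a with 306 (next 238), Klf5 with 292 (next 232) and Cdx1 with 3 (others 0). It was also the highest for Cdx2, Hoxb1 and Meox1, with 1 each where the others had 0. It was the lowest for Grem1 with 6248 (others 7097), Ptger4 with 471 (next 570) and Artn with 440 (next 502). Replicate 3 was the highest for Areg with 90 (next 64). Replicate 4 was the lowest for Atp5c1 with 727 (next 782), Lfng with 9 (next 19) and Prrx2 with 2 (others 4). Replicate 2 was the lowest for Usp7 with 620 (next 697) and Dpysl4 with 1 (others 3). Each of these gaps was smaller than the distance of that library from the nearest day 14 library.

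The OB change differed from the ODR change by the interaction test in 5361 genes. On the log2 scale, the OB change minus the ODR change was 8.50 for Lin28a, 7.80 for Cdx2, 7.60 for Mab21l2, 7.35 for Nkx1-2, 7.27 for Zic4, 7.0 for Psd2, 4.27 for Sox2 and 3.26 for Slc2a1. It was -5.03 for Npbwr1, -4.75 for Tub, -4.47 for Bmp3, -4.23 for Thbs4, -4.22 for Reln and -4.18 for Nt5e.

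Against OA the change differed in 3631 genes. The OB change minus the OA change was 6.55 for Car14, 5.51 for Meox1, 5.48 for Sox2, 5.33 for Psd2, 4.90 for Kbtbd11, 4.89 for Dpysl4, 4.72 for Cdx2, 4.63 for Lin28a and 2.67 for Slc2a1. It was -4.78 for Rgs7bp, -4.15 for Coch, -3.44 for Aldh3a1, -3.38 for Rai2, -3.19 for Adamts2 and -3.17 for Hey1.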

How the results depend on the processing

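The OB comparison called 7587 genes, and 3356 of these had a log2 change of at least 1 in either direction. It called 7713 genes with a pseudocount of 5, 7636 with no filter, 6566 with the stricter filter, 7506 with the pooled spread, 7614 after median centring, 7804 with trend and robust options, and between 6649 and 7290 with 1 library left out. The count that differed from ODR (5361) was 5536, 4949 and 5809 with a pseudocount of 5, no filter and the identical library kept, and between 4076 and 5290 with 1 library left out. The count that differed from OA (3631) was 3768 and 3143 with a pseudocount of 5 and no filter, and between 2500 and 4350 with 1 library left out. Among the genes named in the text, no called change reversed its direction under these settings. This was not counted for the other genes.

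The deviations of same-numbered libraries of the 2 days from their group means correlated at 0.16, 0.037 and 0.048. Pairs with different numbers were not compared, so whether a number marks a shared culture or batch was not tested. With the replicate block 6759 genes were called in OB, and 4760 and 3599 differed from ODR and OA. Of 214 named genes, 15 changed their call in OB under any setting, among them Etv5 (adjusted p = 0.0547), Ndrg1 (adjusted p = 0.0823) and Trp53i11 (adjusted p = 0.112) under the block and Thbs4 (adjusted p = 0.119) and Ldhb (adjusted p = 0.237) with the pooled spread. Against ODR 5 of 34 and against OA 7 of 34 named genes changed their call. The cause was not tested. The unknown depth limits what can be said of genes near 0, and the ceiling limits Pou5f1, Kdm2b, Pkm, Gapdh and Peg10, among others.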
